A study of Mus musculus with 5 samples.

Results

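Distal regions that were open in every library of the series were described: 6355 merged ATAC-seq regions on chromosomes 1 to 19 that held a peak of all 5 libraries and whose midpoint lay over 1 kb from both ends of every protein-coding gene. The members were chosen by the peak calls themselves, so that being called in each library, and with it a floor on each summit pileup, is fixed by the rule and is no result. They made up 44.5% of the 14288 regions open in all 5 libraries, the other 7933 being gene-end regions, and 3.07% of the 207142 distal regions among 224370 merged regions in all. ATAC-seq inserts sequencing adapters into accessible DNA with a transposase, and the libraries were made from lineage-depleted mouse bone marrow, labelled as haematopoietic stem and progenitor cells (HSPC). Every mouse carried Mx1-Cre+ together with inv(16) and was treated with PIPC, a synthetic double-stranded RNA that induces interferon. In 2 of the libraries 1 Smc3 allele was deleted (Smc3 D/+, called Smc3-het), and in 3 both alleles were kept (Smc3 +/+, called Smc3-wt). Mx1-Cre is driven by the interferon-inducible Mx1 promoter, which acts in many cell types besides blood cells. The control libraries carried inv(16), Cre and PIPC as well, so the comparison of genotypes says nothing of these 3. Ages were not given, and the labels do not say whether each library came from its own mouse, so that p-values measure a spread between libraries that may be technical.

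Distal open regions include enhancers, where sequence-specific factors bind at a distance from the genes they act on, insulators bound by CTCF, and starts of transcripts that lie inside or outside the annotated span of a gene. Smc3 belongs to cohesin, a ring-shaped complex that extrudes and holds DNA loops and so brings distal elements close to promoters. In blood stem cells and progenitors, enhancers are known for joint binding of a heptad of factors (Runx1, Gata2, Tal1, Lyl1, Lmo2, Erg and Fli1), and inv(16) in human leukaemia produces a fusion of the Runx1 partner CBFB. A nearest gene is named below for each region; nearness alone does not show which gene a region acts on.

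Background coverage, the commonest local background that the deposited values imply, was between 1.93 and 3.59 fragments per base, and the lists held 26341 and 35335 autosomal peaks in Smc3-het against 64486, 98196 and 118349 in Smc3-wt. Gene ends of 3 of 9 HSPC markers (Flt3, Meis1 and Myb) were open in all 5 libraries. Kit, Cd34 and Hlf were open in 4 libraries, Gata2 in 3, Ly6a in 2 and Mecom in 0. The ends of Elane, Ly6g, Hbb-b1, Cd3e and Alb, which define granulocytic, erythroid, T and liver cells, were open in 0 libraries, while the end of Klf1, an erythroid factor, was open in 5. The ends of all 4 Y-linked genes examined were open in Smc3-wt replicates 1 and 3 and in no other library. The medians over all members, the number of calls and the calls of the largest differences are therefore also given without those 2 libraries, which leaves 1 Smc3-wt library. Pileups of single members are given as deposited, and since background was highest in Smc3-het replicate 1 (3.59) and lowest in Smc3-wt replicate 2 (1.93), groups can overlap in pileup and be apart over background.

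Short sequences help to show what the distal regions were made of. The first set are annotated transcript starts inside members, since 1283 of the 6355 members overlapped a start window, the stretch from 250 bases before to 50 bases after a start in RefSeq (GRCm38.p6, the build of mm10). Of these windows, 4 are printed 5′ to 3′ on the strand of the gene, for a cohesin subunit, a cohesin release factor, a survival factor and a heptad factor whose start lay in a member. Capitals mark matches to any of 7 motifs on either strand.
Stag1, chr9:100643198-100643497, plus strand: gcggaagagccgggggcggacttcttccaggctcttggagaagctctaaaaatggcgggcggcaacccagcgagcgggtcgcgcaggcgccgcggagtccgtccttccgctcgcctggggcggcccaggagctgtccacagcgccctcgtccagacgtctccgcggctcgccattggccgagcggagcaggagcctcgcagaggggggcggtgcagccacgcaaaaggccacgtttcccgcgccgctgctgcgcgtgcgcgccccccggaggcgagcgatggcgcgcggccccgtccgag
Wapl, chr14:34673678-34673977, plus strand: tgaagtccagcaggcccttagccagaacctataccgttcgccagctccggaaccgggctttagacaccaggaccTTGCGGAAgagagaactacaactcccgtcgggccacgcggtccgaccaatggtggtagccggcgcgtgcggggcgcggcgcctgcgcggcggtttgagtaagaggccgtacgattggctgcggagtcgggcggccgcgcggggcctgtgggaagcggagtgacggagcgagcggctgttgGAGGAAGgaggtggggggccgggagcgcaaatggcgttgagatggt
Mcl1, chr3:95658471-95658770, plus strand: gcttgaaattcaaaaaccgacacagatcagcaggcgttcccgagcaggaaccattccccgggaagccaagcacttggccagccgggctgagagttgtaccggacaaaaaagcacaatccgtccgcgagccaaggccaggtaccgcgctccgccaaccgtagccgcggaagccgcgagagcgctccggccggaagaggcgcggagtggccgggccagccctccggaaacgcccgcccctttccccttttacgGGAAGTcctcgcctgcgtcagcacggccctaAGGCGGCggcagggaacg
Gata2, chr6:88198414-88198713, plus strand: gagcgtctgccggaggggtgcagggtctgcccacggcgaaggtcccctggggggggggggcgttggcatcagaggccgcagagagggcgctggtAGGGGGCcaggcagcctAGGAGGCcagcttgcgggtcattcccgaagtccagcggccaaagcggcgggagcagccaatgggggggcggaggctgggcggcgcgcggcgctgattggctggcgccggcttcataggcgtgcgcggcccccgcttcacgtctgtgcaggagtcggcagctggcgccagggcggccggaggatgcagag
The motifs searched were AGGNGGC for CTCF, GGAAGT for ETS factors such as Fli1 and Erg, TGTGGT for RUNX, AGATAA for the GATA family, TGANTCA for AP-1, GAGGAAG for PU.1 and TTGCNNNA for C/EBP, and the PU.1 and ETS letters can share bases. The Stag1 window held none of them, the Wapl window 1 C/EBP and 1 PU.1 match, the Mcl1 window 1 ETS and 1 CTCF match, and the Gata2 window 2 CTCF matches. These letters matched in many windows: of all 31396 start windows, 29.4% held the CTCF letters, 23.9% the ETS letters and 13.4% the PU.1 letters. Among the 1433 windows that lay whole inside a distal member the shares were 42.1%, 27.6% and 13.4%, and among the 8175 inside gene-end regions 42.1%, 31.1% and 12.7%. The RUNX letters were in 12.7% of windows in distal members, 11.2% in gene-end regions and 16.7% of all windows. For GATA the shares were 8.03%, 4.54% and 11.2%, for AP-1 6.28%, 3.62% and 7.84%, and for C/EBP 27.0%, 26.1% and 33.5%. Base composition moved with these shares, the median GC content being 61.3% in distal members, 62.7% in gene-end regions and 53.0% in all windows, and its part in them was not tested.

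The second set are microRNAs, short RNAs that repress messenger RNAs by pairing through their seed. Of 1136 microRNA genes 18 overlapped 17 distal members. The mature strands of 4 of them are printed 5′ to 3′ with the seed, bases 2 to 8, in capitals, and were picked after values were seen because their targets and tissues are well studied.
mmu-miR-210-3p: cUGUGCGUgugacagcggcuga
mmu-let-7i-5p: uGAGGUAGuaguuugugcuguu
mmu-miR-132-3p: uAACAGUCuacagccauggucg
mmu-miR-212-3p: uAACAGUCuccagucacggcca
The last pair share their seed and lay in the same member, chr11:75172954-75173946, 2.49 kb from the nearest protein-coding gene, Ovca2. Its summit pileup, the number of fragments over the highest base, was 42 and 22 in Smc3-het, against 22, 11 and 25 in Smc3-wt replicates, above the median of all members in Smc3-het replicate 1 and below it in the other 4 libraries. The member at Mir210, the hypoxia-induced microRNA, chr7:141221462-141222440, overlapped an edge of the gene but not the mature strand printed above. It was stronger, with 87 and 48 against 145, 107 and 208. The member at let-7i, chr10:122985232-122986781, had 36 and 49 against 103, 76 and 118. At Mir210 and let-7i both Smc3-het libraries were below each Smc3-wt library, and at Mir132 and Mir212 the groups overlapped.

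Across all members, the median summit pileup was 29 and 27 in the Smc3-het libraries 1 and 2, against 43, 33 and 62 in the Smc3-wt libraries 1, 2 and 3. Over each library's own background this was 8.07-fold and 9.24-fold against 15.7-fold, 17.1-fold and 20.5-fold. Both Smc3-het libraries were below every Smc3-wt library. The same order at a single member is thus the typical one and is not particular to that member. The difference of the log2 medians was −1.03, or 2.04-fold lower in Smc3-het, with p = 0.2 in a two-sided exact permutation test (n = 2 and 3), the smallest p these group sizes allow. Gene-end regions differed by −1.12 on the same log2 scale, from 12.8-fold and 16.1-fold to 27.7-fold, 29.6-fold and 37.4-fold. With Smc3-wt replicate 2 as the only Smc3-wt library, so that libraries with Y-linked peaks were left out, the distal difference was −0.99. On the authors' fold enrichment the distal log2 difference was −0.58. In these bulk libraries, fewer cells with an open site, less opening per cell and a lower signal of the library as a whole cannot be told apart.

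The distal regions were weaker than gene-end regions in all 5 libraries. Their median pileup was 63.0% and 57.4% of the gene-end median in Smc3-het, against 56.6%, 57.9% and 54.9% in Smc3-wt. The groups overlapped, and the log2 difference of 0.093 had p = 0.4 (two-sided exact permutation test, n = 2 and 3). With the authors' fold enrichment in place of pileup the difference was −0.0035. The peaks that the libraries contributed were also narrower in Smc3-het, with medians of 553 and 616 bp against 799, 754 and 898 bp, a difference of −232.5 bp (p = 0.2, two-sided exact permutation test, n = 2 and 3). Gene-end peaks were narrower in Smc3-het as well, with medians of 777 and 841 bp against 1030, 984 and 1139 bp. Their difference was −242 bp (p = 0.2, two-sided exact permutation test, n = 2 and 3), so the narrowing was not particular to distal regions. Without the libraries with Y-linked peaks the difference in distal width was −169.5 bp, and the log2 difference of distal relative to gene-end pileup was 0.056.

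By the rule every list contributes about the same number of member peaks, 6557 to 6684 here, so that their share of a list follows from its length: 25.0% and 18.6% of Smc3-het peaks, against 10.3%, 6.81% and 5.54% of Smc3-wt peaks. The lowest pileup in a whole list was 12 and 10 in Smc3-het, against 9, 7 and 9 in Smc3-wt. As a description, over the 6355 members Spearman's rho of pileup ran from 0.60, between Smc3-het replicate 1 and Smc3-wt replicate 1, to 0.86, between Smc3-wt replicates 1 and 3. These pairs share the genome and its repeats, and Smc3-het replicate 1 gave the lowest values with all 3 Smc3-wt libraries, 0.596 to 0.599.

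Being open in all libraries was far less common away from gene ends. Of 207142 distal regions 81.6% were called in a single library, 8.55% in 2, 4.16% in 3, 2.63% in 4 and 3.07% in 5, whereas 46.0% of 17228 gene-end regions were called in 5. The merged members had a median width of 1131 bp, from 286 to 5676 bp, and 5.29% were wider than 2 kb. The summits of the 5 libraries fell within 200 bp of each other in 39.4% of members and within 500 bp in 83.0%. Of the members 59.7% lay inside the annotated span of a protein-coding gene. By distance to the nearest gene end, 10.8% lay at 1 to 2 kb, 31.0% at 2 to 10 kb, 39.4% at 10 to 50 kb and 18.8% beyond 50 kb.

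At the edge of the distance rule, the nearest member inside, in R3hcc1l, lay 1.001 kb from a gene end and had pileups of 46 and 47 in Smc3-het, against 72, 79 and 150 in Smc3-wt. The next, in Cyb561, had 26 and 25 against 41, 17 and 49, and the third, in Tbl1xr1, 51 and 54 against 66, 60 and 121. The first region outside, 1000 bp from an end of Syne3, had 60 and 75 against 118, 121 and 222. It was followed by one near Fam207a with 48 and 48 against 103, 66 and 111, and one near Cep135 with 17 and 11 against 45, 8 and 89.

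The label of distal regions held for most members by distance, but 20.2% of them (Wilson 95% interval 19.2% to 21.2%) overlapped an annotated transcript start: 965 a start of a protein-coding gene, 421 one of a long non-coding RNA and 103 both. Such starts can lie inside a longer annotated gene or belong to non-coding genes, which the distance rule did not use. As the rule measured from midpoints, a wide member can also reach the start at the end of a gene. The share was 0.561% of distal regions called in 1 library, 2.00% in 2, 3.35% in 3 and 6.04% in 4. Within the central 300 bp alone, which does not depend on width, it was 12.4% of members against 3.60% of regions in 4 libraries and 0.476% of regions in 1. Intervals cover counting error only.

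**Figure D1:**
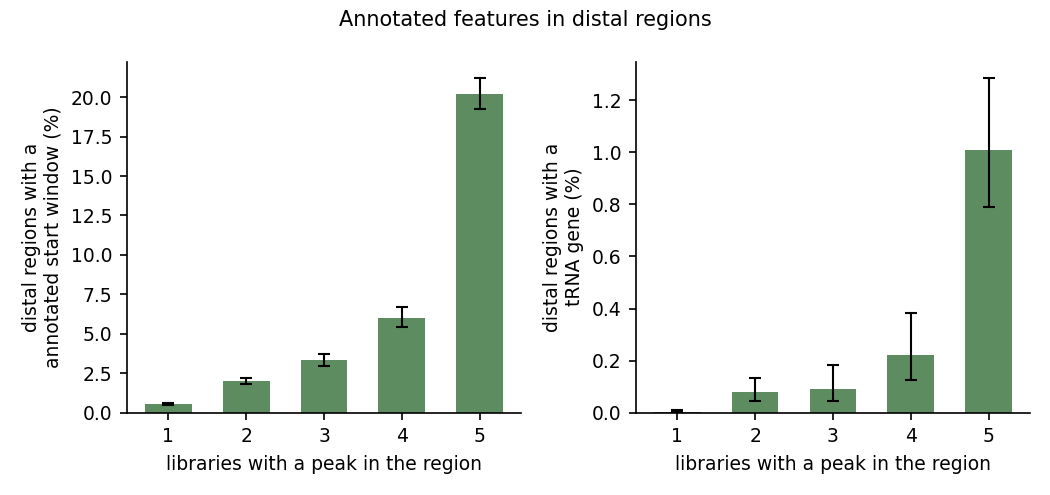
Share of distal regions (y axis, %) that hold an annotated start window (left) or a tRNA gene (right), by the number of libraries with a peak (x axis); bars are shares and lines Wilson 95% intervals. Start windows were in 20.2% of regions called in 5 libraries and 6.04% of those called in 4, and tRNA genes in 1.01% and 0.220%.

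Members with a start resembled gene-end regions in strength. The 1270 members with a start that held neither a tRNA gene nor extreme coverage had a median pileup over background of 11.4-fold and 13.7-fold in Smc3-het, against 23.7-fold, 24.9-fold and 30.7-fold in Smc3-wt. That was between 82.3% and 89.1% of the gene-end median of the same library. The 4979 members with none of these features had 7.52-fold and 8.55-fold against 14.2-fold, 16.1-fold and 18.5-fold, between 49.6% and 58.7% of the gene-end median. The order of the classes was the same in each of the 5 libraries.

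Genes for tRNA, short genes read by RNA polymerase III, lay in few members, but in a larger share of them than of other distal regions. Of 391 annotated tRNA genes 109, or 27.9%, lay in 64 distal members, and 34 lay in gene-end regions. Only 0.220% of distal regions called in 4 libraries held one, against 1.01% of members. Within the central 300 bp alone the shares were 0.0734% and 0.472%. The 64 members had median pileups of 11.4-fold and 14.0-fold over background in Smc3-het, against 22.2-fold, 26.2-fold and 29.4-fold in Smc3-wt, near the values of members with a start.

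**Figure D2:**
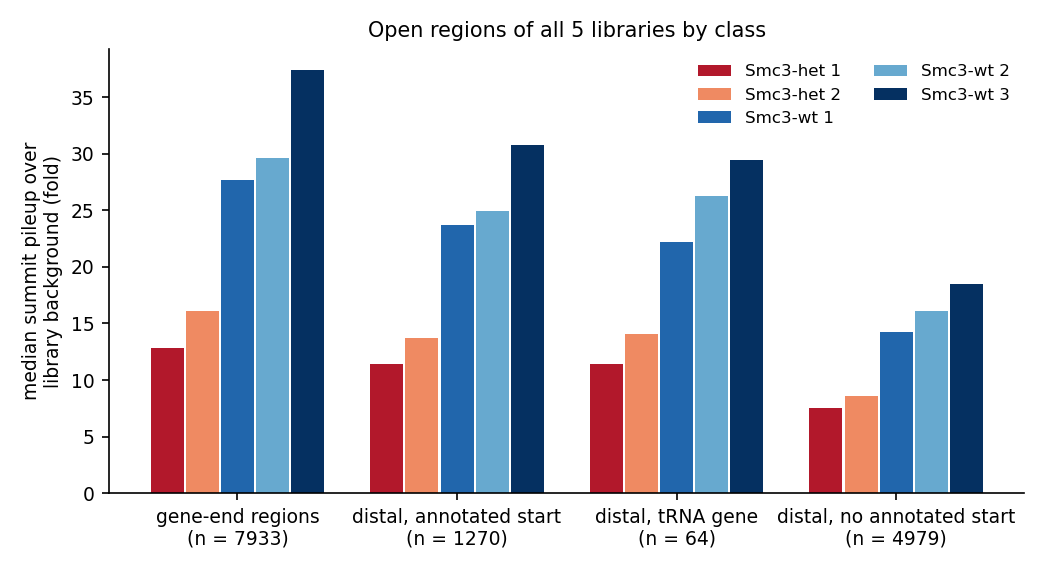
Median summit pileup over library background (y axis, fold) in gene-end regions and in 3 classes of distal regions open in all 5 libraries, 1 bar per library. The 42 members of extreme coverage are left out for scale; members without an annotated start sit lowest in each library, at 7.52-fold to 18.5-fold.

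A small class of 42 members stood over 100-fold above background in all 5 libraries and took the top of the ranking. The strongest, chr2:98666556-98667320, had pileups of 722719 and 620683 in Smc3-het, against 414022, 253001 and 381857 in Smc3-wt. Its nearest protein-coding gene, Lrrc4c, lay 1035 kb away. Another 16 lay on chromosome 9 between 3000002 and 3038295, at least 297 kb from Alkbh8. A member of 5676 bp on chromosome 17, 39843045 to 39848720, had 1484 and 1394 against 1877, 1295 and 2326. Assembled copies of satellite and ribosomal DNA are known for such pileups in mouse data, because reads of many genomic copies align to few places. Whether these members are such places was not tested. Their peaks were short, with medians between 527 and 536 bp, and the summits of the 5 libraries fell within 100 bp of each other in 92.9% of them against 11.2% of all members.

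The 12 strongest members with a gene within 100 kb all belonged to this class. The nearest genes were Rpusd4, Mrgprd, Gm45871, Tmem196, Col19a1, B230307C23Rik, Gm14496, Cr2, Zc3h7a, Axin2, Ly6c2 and Filip1l. The member near Ly6c2, which encodes the monocyte surface antigen Ly6C, had 1033 and 824 in Smc3-het, against 1037, 551 and 1100 in Smc3-wt, with overlapping groups. Below this class and with no start, members chosen by the same ranking included one in Camk1d, a calcium-dependent kinase, with 336 and 297 against 506, 266 and 815. A member 8.90 kb from Foxj2, a forkhead factor, had 150 and 201 against 518, 281 and 628. At Foxj2 both Smc3-het libraries were below each Smc3-wt library. At Camk1d the pileups overlapped, but over background 93.5-fold and 102-fold stood below 184-fold, 138-fold and 269-fold.

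The members were spread over many genes. Of 20661 protein-coding genes 4248, or 20.6%, were the nearest gene of a member, 2994 of them of 1 member only and 90 of 5 or more. Alkbh8, with 17, owed 16 to the extreme class, and Sfi1, a centrosome gene, had 13. Then followed Prkce, a protein kinase C, with 11, Gse1 with 10, and Pde4d, Mbnl1, Akap13 and Zfp217 with 9 each. Pde4d breaks down cyclic AMP, Mbnl1 regulates splicing, Akap13 anchors protein kinase A, and Zfp217 is a zinc finger repressor. Gm15319 and the chromatin remodelling gene Arid1b had 8 each. All members of Prkce, Gse1 and Pde4d lay inside the gene, whose span was 490.1, 352.9 and 1302 kb. At Prkce the pileup over background ran from 4.18-fold to 13.9-fold in Smc3-het replicate 1 and from 4.96-fold to 69.4-fold in Smc3-wt replicate 3.

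Among 15 gene lists, with 156 of 160 genes matched, the largest shares with a member were found for survival and cell cycle genes (10 of 10), the heptad (6 of 7) and AP-1 and immediate early genes (10 of 12), beside 20.6% of all genes. With members over 5 kb from gene ends these counts became 6, 5 and 6, while negative regulators of signalling stayed at 5 of 9. The shares are descriptions of lists that differ in gene length and in the space around their genes.

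**Figure D3:**
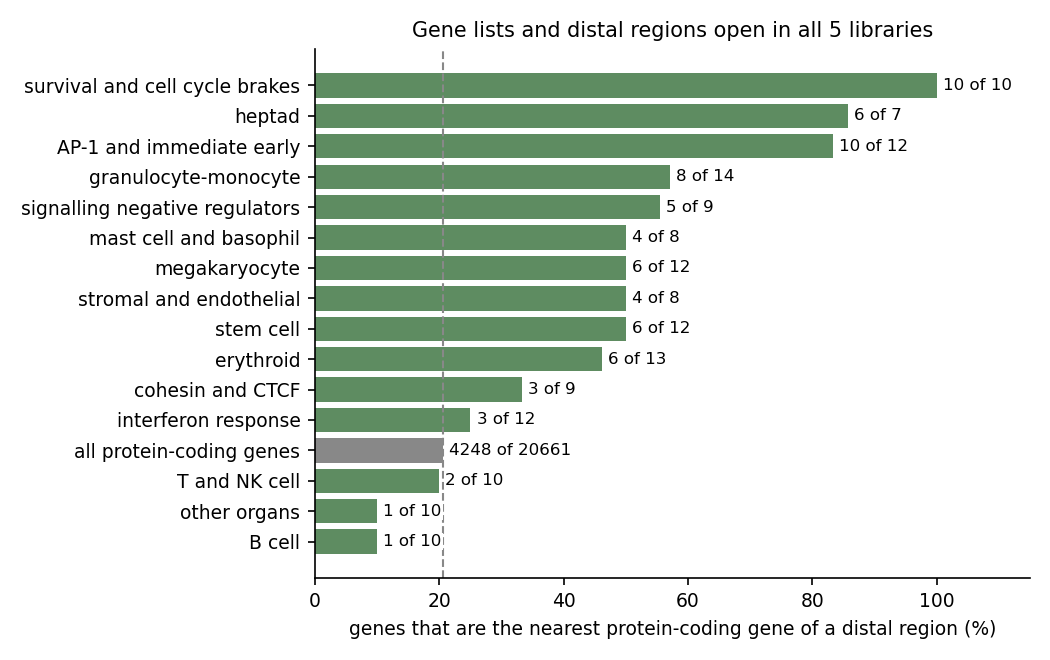
Share of the genes of each list that were the nearest protein-coding gene of at least 1 distal region open in all 5 libraries (x axis, %), with the counts beside the bars. The dashed line is the 20.6% of all protein-coding genes. T and NK cell, B cell and other-organ lists lie below it, and the stromal and endothelial list lies above it, at 50%.

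Of the heptad, all but Lyl1 had members, 21 in total. Runx1, the DNA-binding partner of Cbfb, had 7, of which 4 lay inside the gene and the others up to 372 kb from it. The strongest, chr16:92715380-92716396, had pileups of 40 and 54 in Smc3-het, against 101, 55 and 136 in Smc3-wt, with no overlap. A further one, chr16:92696713-92699059, held an internal Runx1 start and had 41 and 47 against 53, 42 and 92. Lmo2, an adaptor protein of the Tal1 complex, had 4 members, and Erg and Fli1, ETS factors, had 3 each, all inside the gene. The strongest Fli1 member, 2.53 kb from a gene end, had 38 and 41 against 40, 39 and 81. The strongest Erg member, chr16:95438761-95441721, had 42 and 55 against 104, 51 and 165. Gata2 and Tal1 had 2 each, and the Gata2 member with the start printed above had 39 and 38 against 41, 23 and 72. At Fli1, Gata2, Erg and the internal Runx1 start the pileups of the groups overlapped as deposited. Over background they overlapped at Gata2, while at Fli1, Erg and the Runx1 start both Smc3-het libraries were below each Smc3-wt library. At Fli1 the values were 10.6-fold and 14.0-fold against 14.6-fold, 20.2-fold and 26.8-fold. The median member was lower over background too. Each library was also centred on its median over the regions open in all 5 libraries. The log2 differences of Smc3-het from Smc3-wt were then 0.35 at Fli1, 0.27 at the Runx1 start, 0.61 at Gata2 and −0.29 at Erg.

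Survival factors and cell cycle genes had 18 members. Ccnd3, a D-type cyclin, had 5, Mcl1 had 3, and Bcl2l1 and Ccnd2 had 2 each. The strongest member of the list held a start of Bcl2l1, which encodes the survival protein Bcl-xL, and had 130 and 102 in Smc3-het, against 133, 86 and 210 in Smc3-wt. The Mcl1 start printed above lay in a member with 66 and 44 against 78, 75 and 109. At Bcl2l1 the deposited pileups overlapped, but over background 36.2-fold and 34.9-fold stood below 48.5-fold, 44.7-fold and 69.4-fold. At Mcl1 both Smc3-het libraries were lower on either scale. With each library centred on its median open region, the log2 differences were 0.47 at Bcl2l1 and 0.03 at Mcl1. Of the 18 members 6 overlapped a start.

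AP-1 and immediate early genes, which are switched on within a short time of a stimulus or of cell handling, had 19 members. Jun had 5, Atf3 had 3, and Fos and Fosb had 2 each. The strongest near Jun, chr4:95160972-95162205, lay 109 kb away and had 63 and 81 against 179, 108 and 318. A member at Egr2, with start windows, had 62 and 124 against 174, 119 and 260, which overlapped. Over background it had 17.3-fold and 42.4-fold against 63.4-fold, 61.8-fold and 86.0-fold, with no overlap. With each library centred on its median open region, the log2 differences were −0.66 at this Jun member and −0.30 at Egr2. The strongest members of Fos and Fosb had 0.55 and 0.69. Over the 19 members the median was 0.37, from −0.75 to 0.98, with a smallest adjusted p of 0.0596 (limma).

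Lineage lists were in between. Of stem cell genes 6 of 12 had 16 members. Meis1, a homeobox factor of stem cells, had 5, the strongest of them inside the gene with 35 and 45 against 97, 43 and 77. Granulocyte-monocyte genes had 9 members at 8 of 14 genes, among them Spi1, the gene of PU.1, with 38 and 44 against 57, 47 and 98. Megakaryocyte genes had 12 at 6 of 12, with 6 at Mef2c. Erythroid genes had 10 at 6 of 13, with 3 each at Ank1 and Bcl11a. Mast cell and basophil genes had 6 at 4 of 8, including Cpa3, the mast cell carboxypeptidase, with 25 and 30 against 90, 32 and 124. Negative regulators of signalling had 9 at 5 of 9, with 3 at Dusp6.

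Interferon response genes had 4 members at 3 of 12 genes, among them Irf1 and Usp18, which was 25.0% beside 20.6% of all genes. The cohesin and CTCF list had 5 members at 3 of 9 genes, and Smc3 itself was nearest to none. The member at the internal start of Stag1, a cohesin subunit, had 157 and 143 in Smc3-het, against 282, 223 and 334 in Smc3-wt, with both Smc3-het libraries below each Smc3-wt library. Wapl, which releases cohesin from DNA, had 3 members, the strongest at the start printed above with 93 and 73 against 126, 89 and 174. There 93 exceeded 89, though over background both Smc3-het libraries were below each Smc3-wt library. With each library centred on its median open region, the log2 differences were 0.10 at this Wapl member and −0.18 at Stag1. Pds5a, a cohesin regulator, had 1 member.

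Of markers of other cells, T and NK cell genes had 6 members at 2 of 10 genes, namely 4 at Ets1 and 2 at Gata3, both also expressed in progenitors. B cell genes had 5 members, all at Bach2, of 10 genes. Stromal and endothelial genes had 8 at 4 of 8, with 3 at Cdh5, a cadherin of endothelium, where 28 and 24 stood against 37, 33 and 58. The other-organ list had 1 member at 1 of 10 genes, inside Gfap. The part of such cells in the results was not tested.

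Non-coding genes had an end within 1 kb of up to 613 members for long non-coding RNAs and of up to 22 for microRNAs. A member near several such genes may be counted more than once. By strength the first 6 microRNA genes were Mir101c, which lay beside a member of the extreme class and did not overlap it, Mir5620, Mir1956, Mir5619, Mir210 and Mir760. The member at Mir5620, in Clcn4 and with an annotated start, had 134 and 176 in Smc3-het, against 531, 378 and 706 in Smc3-wt. Mir1956, in Eif4e, had 64 and 105 against 159, 143 and 217. In both, each Smc3-het library was below each Smc3-wt library.

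Smc3-het and Smc3-wt were compared region by region with limma on log2(pileup + 1), each library centred on its median over the 14288 regions, so that a difference is relative to the typical open region and not to background. All 6355 members were tested, and no filter was applied beyond the rule that chose them. A region that lacked a peak in any list was not tested. A site without a peak in Smc3-het could therefore not be called lower, and the balance of higher and lower calls holds for the chosen regions only. With Benjamini-Hochberg adjusted p under 0.05 over the 14288 regions, 158 members were higher and 201 lower in Smc3-het. That was 2.49% and 3.16% of members, beside 1.59% higher and 4.86% lower of all regions tested. In gene-end regions 0.870% were higher and 6.21% lower, and the difference between the shares of the 2 kinds of region was not tested. Relative to background, both Smc3-het libraries exceeded each Smc3-wt library in 53 of the 158 higher members and were below each in 6 of them. They were below each in 201 of the 201 lower members. The calls rest on these same pileups, and the median member was 2.04-fold lower over background in Smc3-het. Being below each is therefore near the typical state, and its share over all members was not counted.

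Scaling and single libraries decided how many members were called. Quantile normalization, which moved the median log2 difference of members from 0.08 to −0.04, called 113 higher and 82 lower, beside 1.08% and 1.06% of all regions, so that higher calls went from 44.0% to 57.9% of the total. Under both scalings 91 members were called higher and 66 lower. On the authors' fold enrichment, which divides by local background, 9 were higher and 1 lower. Without Smc3-het replicate 1, with the spread taken from the Smc3-wt libraries alone, the total of 359 became 50, without Smc3-wt replicate 1 it became 141, and without Smc3-wt replicate 3 it became 207. With the 3 libraries that lacked peaks at Y-linked genes it was 118, where the single Smc3-wt library was assumed to vary like the Smc3-het pair.

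**Figure D4:**
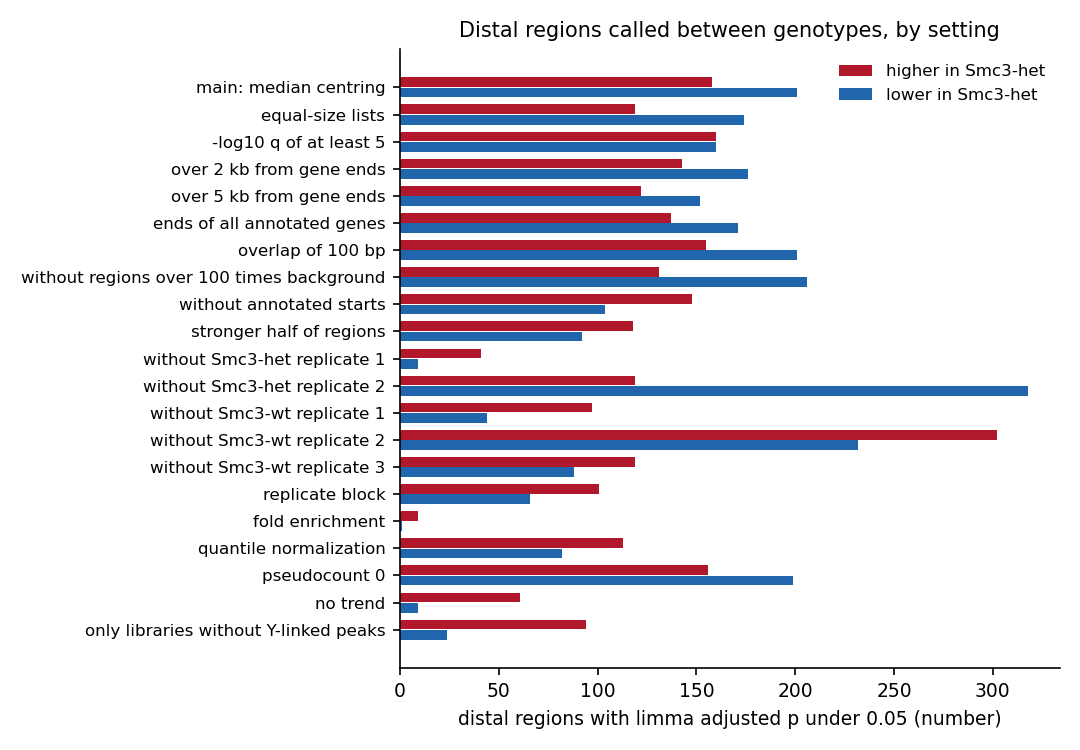
Number of distal regions open in all 5 libraries with a limma adjusted p under 0.05 (x axis), higher (red) and lower (blue) in Smc3-het, by processing setting (y axis). Median centring gave 158 and 201, fold enrichment 9 and 1, and leaving out Smc3-het replicate 1 gave 41 and 9.

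Of the 158 members called higher 4 were nearest to a listed gene, as were 149 of all 6355 members. The 8 with the largest difference had Pcdh15, Ranbp3l, Tcte2, Muc3, Smgc, 9230019H11Rik, Gm8068 and Vps45 as nearest genes. In Pcdh15, a protocadherin of the inner ear, pileup was 65 and 42 in Smc3-het, against 17, 11 and 30 in Smc3-wt. The log2 difference was 2.19 (SE 0.348, limma adjusted p = 0.000246), and it was 1.79 on fold enrichment (limma adjusted p = 0.0107). In Ranbp3l, 63 and 66 stood against 33, 19 and 21, with a log2 difference of 2.10 (SE 0.344, limma adjusted p = 0.000382). Near Tcte2, 106 and 101 stood against 45, 25 and 52. The smallest adjusted p, 5.79e-07, belonged to a member 6.58 kb from 9230019H11Rik with 292 and 367 against 143, 102 and 160. Its local background was 17.2-fold the library background, and on fold enrichment its difference of 0.71 had a limma adjusted p of 0.346. In all 8 the groups did not overlap, as deposited or over background, and all 8 were also called without the libraries with Y-linked peaks. On fold enrichment 6 of the 8 were called.

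Some genes had repeated higher calls: Alkbh8 had 16, all in the extreme class, Sfi1 had 5, and 9230019H11Rik and Gm15319 had 4 each. Calls went both ways at Sfi1, with 2 members called lower, and at Alkbh8 and Gm15319, with 1 each. Of the 158, 24 were of extreme coverage. In that class 24 of 42 were called higher and 0 lower with median centring, but 14 higher and 11 lower with quantile normalization. Without the class, 131 members were higher and 206 lower in a fit of the remaining regions. How the authors placed reads from repeated sequence is not stated in the labels, and their part in these calls was not tested.

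Of the members called lower, those with the largest difference included 7 in or near Rttn, Tom1l1, Adamtsl1, Mob3b, Clybl, Ctnna3 and Hs2st1. In Rttn pileup was 18 and 18 in Smc3-het, against 80, 59 and 184 in Smc3-wt, with a log2 difference of −1.65 (SE 0.290, limma adjusted p = 0.000820; 0.317 on fold enrichment). Near Tom1l1, 13 and 36 stood against 73, 85 and 177. In Ctnna3, a catenin, it was 13 and 20 against 76, 48 and 93, with −1.35 (SE 0.313, limma adjusted p = 0.00921), and on fold enrichment its limma adjusted p was 0.0334. It was the only one of the 7 called on fold enrichment, where the others had adjusted p between 0.141 and 0.647 (limma). Without the libraries with Y-linked peaks 4 of the 7 were called, and Adamtsl1, Ctnna3 and Hs2st1 had limma adjusted p of 0.0975, 0.0993 and 0.199. In each of these 7 both Smc3-het libraries were below every Smc3-wt library.

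**Figure D5:**
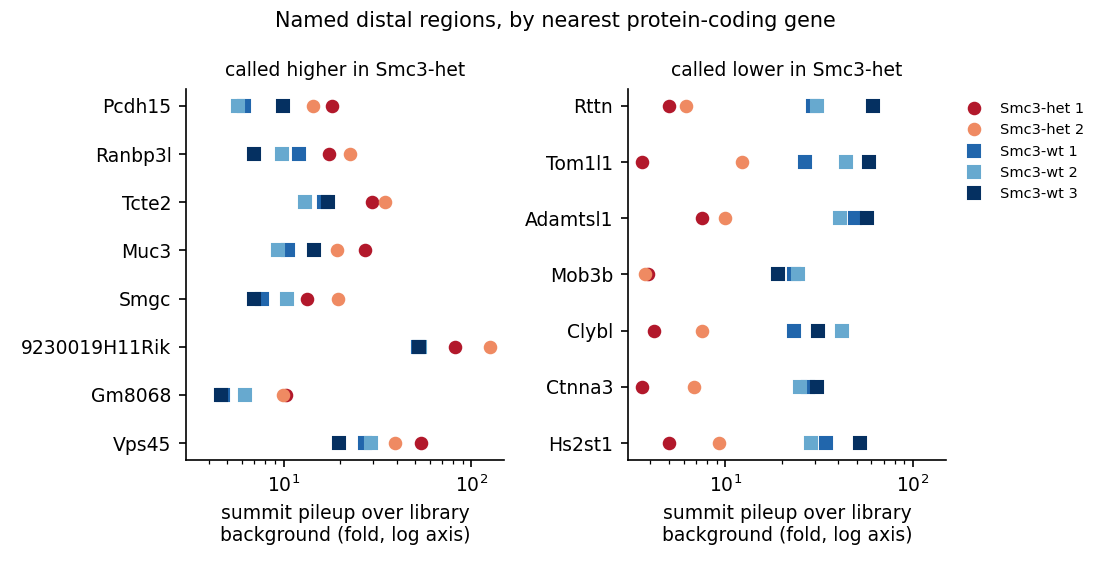
Summit pileup over library background (x axis, fold, log axis) in 15 named members (y axis, nearest gene), 1 point per library with circles for Smc3-het and squares for Smc3-wt. Smc3-het points lie to the right in the left panel and to the left in the right panel; at Rttn they are 5.01 and 6.16 against 29.2, 30.6 and 60.8.

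Of the lower members 31.8% overlapped an annotated start and of the higher ones 6.96%, beside 20.2% of all members. In the class with a start that held neither a tRNA gene nor extreme coverage were 64 of 201 lower and 11 of 158 higher members. Of all 6355 members 1270 were in this class. With quantile normalization it held 10 of 82 lower and 7 of 113 higher members. The excess of lower members over all members was thus lost. The share stayed larger in lower than in higher members under both scalings, and this difference was not tested. The local background was a median 3.63-fold the library background in lower, 1.77-fold in higher and 1.72-fold in all members. Without the members that overlap a start, 148 were higher and 104 lower in a fit of the remaining regions.

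Of the 149 list members 4 were called higher and 2 lower, where 1.59% and 4.86% of all regions were. None of the 21 heptad members was called, their log2 differences lying between −0.38 and 0.80 with a smallest adjusted p of 0.175 (limma). None of the AP-1, megakaryocyte, erythroid, mast cell, B cell, T and NK cell, cohesin, signalling, stromal or other-organ members was called either. A member 15.4 kb from Cd34, the stem cell antigen, had 65 and 135 in Smc3-het, against 298, 236 and 460 in Smc3-wt, a difference of −1.06 (SE 0.227, limma adjusted p = 0.00527). On quantile normalization its adjusted p was 0.0930 and on fold enrichment the difference was −0.02. A member in Mllt3, a regulator of stem cell maintenance, had 27 and 16 against 81, 46 and 129, a difference of −1.17 (limma adjusted p = 0.0182; 0.0300 with quantile normalization).

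The 4 higher list members lay near Ly6c2, Csf1r, Irf1 and Mcl1. At Irf1, an interferon response factor, 68 and 55 stood against 51, 43 and 59, a difference of 0.96 (SE 0.276, limma adjusted p = 0.0338). The raw values overlapped there, and over background 18.9-fold and 18.8-fold stood against 18.6-fold, 22.3-fold and 19.5-fold. In Csf1r, the monocyte growth factor receptor gene, 40 and 26 stood against 18, 21 and 33, a difference of 1.15 (limma adjusted p = 0.0473), and the groups overlapped there too. The member 5.80 kb from Mcl1 had 49 and 17 against 19, 18 and 15, so that Smc3-het replicate 1 alone stood out, at a difference of 1.41 (SE 0.426, limma adjusted p = 0.0431). With quantile normalization the limma adjusted p was 0.108 at Csf1r, 0.141 at Mcl1 and 0.254 at Ly6c2, so that of the 4 only Irf1 was called (0.0463). Over background the groups overlapped at all 4, with 288-fold and 282-fold against 378-fold, 286-fold and 364-fold at Ly6c2. On fold enrichment the adjusted p of the 6 list members called was between 0.340 and 0.980 (limma).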

How the data were processed

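ATAC-seq of 5 libraries was used. Per the submitters' processing notes, Bowtie2, MACS2 and the build mm10 were used, and the deposited peak lists come 1 per library. For every peak they hold the interval, the deposited summit signal (fragments piled up at the highest base, a whole number) and the authors' fold enrichment, a ratio of that pileup to local background. The headers of 2 columns were lost, and by order and values these deposited columns are −log10 p and −log10 q. Mapped depth is unknown; the limits of precision are the 2 and 3 libraries.

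Peaks of chromosomes 1 to 19 that overlapped by at least 1 bp were merged (Python 3.11, pandas 2.3.3, numpy 2.4.6). Genes came from RefSeq for GRCm38.p6, with 20661 protein-coding genes on these chromosomes; exons were not used here. The peak of highest pileup represented a library in a region. Background was the commonest (pileup + 1)/fold − 1 of a list. Groups were compared with scipy 1.17.1, exact permutation, two-sided, and regions with limma 3.58.1 (R 4.3.3), with a trend, after tests on simulated data, and Benjamini-Hochberg adjustment over all 14288 regions. Named were the 12 strongest members with a gene within 100 kb, the 10 genes nearest to the most members, up to 4 genes a list, the 8 largest called differences each way, 6 non-coding genes and 3 regions on each side of the 1 kb limit. The members and lists were chosen with earlier results of these data known. Some genes that these rules name are not reported here. Gata1, Smc1a, Stag2 and Lnk were not matched. Motifs were searched in annotated start windows alone, as no genome was used here. Groups and replicate numbers follow the sample titles.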

Additional observations from a re-analysis of the deposited data

How the results depend on the processing

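Under the alternatives run, the number of members stayed between 4367 and 9404 and the log2 difference of pileup over background between −1.15 and −0.58, and width kept its direction. The distal to gene-end difference turned to −0.0035 on fold enrichment and was 0.0072 with equal-size lists. The 359 called members became 210 in the regions above the median of mean pileup, 195 with quantile normalization, 70 without a trend and 10 on fold enrichment; leaving out 1 library gave 50 to 534. Alternatives chosen after seeing the data gave 337 calls without extreme members, 252 without members holding a start, and 118 in libraries without Y-linked peaks. The causes were not tested. Replicate numbers are names in the labels and pair nothing: same-numbered libraries had correlations of deviations of −0.067 and −0.076 over 14288 regions, and a replicate block with 2 pairs called 167. Of 297 values of the 16 named called regions 28 missed the threshold and none reversed. These regions were picked for their large differences in the same data. Settings that change only the distance from gene ends, or the genes whose ends are used, repeat the main fit. Their values in the 297 could not differ from it. List genes with a member moved most in the granulocyte-monocyte list, from 8 to 4 with equal-size lists and to 5 over 5 kb from gene ends or with −log10 q of at least 5, and in the interferon list, from 3 to 1 with the ends of all annotated genes. The B cell and other-organ lists, with 1 gene each, fell to 0 under some of these. Pileups near 10 fragments limit the Smc3-het values.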
